A study of Mus musculus with 4 samples.

Results

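The tumour suppressor p53 is a transcription factor that binds DNA and switches on genes that halt the cell cycle, repair damage, adjust metabolism or kill the cell. This account concerns 10 of its best known mouse target genes, *Mdm2*, *Ccng1*, *Trp53inp1*, *Bax*, *Bbc3*, *Pmaip1*, *Sesn1*, *Sesn2*, *Gdf15* and *Phlda3*, which were picked by symbol from the 48587 genes of the count table. All 10 were present, and all 10 passed the filter on low counts that kept 18916 genes for testing. The cells were primary vascular smooth muscle cells (VSMCs) grown out of the descending aorta of adult C57BL/6J mice after the adventitia was stripped and the endothelium scraped off. All cultures were transduced with a lentivirus. The shCTR group expressed a hairpin against a plant microRNA, and the shMettl14 group expressed 1 hairpin against *Mettl14*, which encodes the RNA-binding partner in the complex that writes *N*6-methyladenosine (m6A) on mRNA. Each group had 2 mRNA-seq libraries, with the letters A and B, and with 1 hairpin per group an effect of *Mettl14* loss and an effect of the hairpin on other genes cannot be told apart.

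In resting cells p53 is kept scarce by the ubiquitin ligase Mdm2, itself the product of a p53 target gene, so that the pathway holds itself in check. Stress frees p53 from Mdm2, and its targets then act at several levels. *Bax*, *Bbc3* (PUMA) and *Pmaip1* (NOXA) act on the mitochondrial outer membrane in apoptosis, *Sesn1* and *Sesn2* restrain growth signalling, *Phlda3* restrains AKT, and *Gdf15* is a secreted stress hormone. In the arterial wall p53 is known as a brake on smooth muscle proliferation and as a driver of their death in diseased vessels.

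The libraries held between 114343653 and 124815868 counts, so that the 10 genes, with 716 to 114314 counts per library, were all far above the 3 counts that an observed 0 allows. *Mettl14* had 2050 and 2154 counts in shCTR A and B and 546 and 568 counts in shMettl14 A and B, and both knockdown libraries were therefore below both controls, at 0.236 of the shCTR level (log2 fold change −2.08, standard error 0.25, unadjusted p = 0.00039, adjusted p = 1.0 from edgeR and 1.7e-09 from DESeq2). The smooth muscle genes *Acta2* and *Myh11* were present in every library, at 2073 to 3547 CPM and up to 338 CPM (CPM is the count scaled to a common library size, with edgeR's TMM factors unless said otherwise). The summed level of 10 smooth muscle markers was 8449 and 8296 CPM of the raw total in shCTR A and B and 6657 and 8053 CPM in shMettl14 A and B. Endothelial genes were abundant too, although the endothelium had been scraped off. The summed level of 10 endothelial markers was 2086 and 3954 CPM of the raw total in shCTR A and B and 2053 and 2754 CPM in shMettl14 A and B, highest in shCTR B, and none of the 10 was at 0. The sum of 10 leukocyte markers was 12.5 to 18.0 CPM, with *Adgre1*, *Itgam*, *Tyrobp* and *Cd3e* at 0 in at least 1 library, that of 10 adventitial fibroblast markers was 852 to 1142 CPM, and that of 8 epithelial markers was 58.7 to 413 CPM, higher in both B libraries than in both A libraries, with *Krt14*, *Krt5*, *Krt8* and *Cldn4* at 0 in at least 1 library. The fitted log2 fold change was negative for 8 of 10 smooth muscle, 8 of 10 endothelial, 6 of 6 tested leukocyte, 4 of 10 fibroblast and 4 of 4 tested epithelial markers, beside 48.8% of all tested genes. In such bulk libraries fewer cells of a type and less RNA per cell cannot be told apart. Nothing in the sources says that the libraries of a group came from separate animals or cultures, so the p-values measure the spread between these libraries, which may be technical.

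*Trp53inp1*, *Ccng1* and *Sesn1* were higher in both shMettl14 libraries than in both shCTR libraries, by 1.52-, 1.27- and 1.26-fold. *Mdm2* was slightly lower in both, at 0.902 of the shCTR level. *Bax*, *Bbc3*, *Phlda3*, *Sesn2* and *Gdf15* were lower in letter B than in letter A with either hairpin, and their groups overlapped, as did those of *Pmaip1*. In the quasi-likelihood fit of edgeR, without a term for the letter and with p-values adjusted by Benjamini and Hochberg over 18916 genes, none of the 10 passed an adjusted p of 0.05 (each 1.0), and neither did any other gene (0%). At the unadjusted level of 0.05 in that fit, *Trp53inp1* was the only one of the 10, beside 315 of all genes (1.67%, or 0.656% higher and 1.01% lower). DESeq2 also called 0 of the 10 at an adjusted p under 0.05, and 4 genes (0.0250%) in all. A fit with the letter as a term called more genes, though none of the 10 at an adjusted p of 0.05, and its values are given with the processing alternatives.

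**Figure D1:**
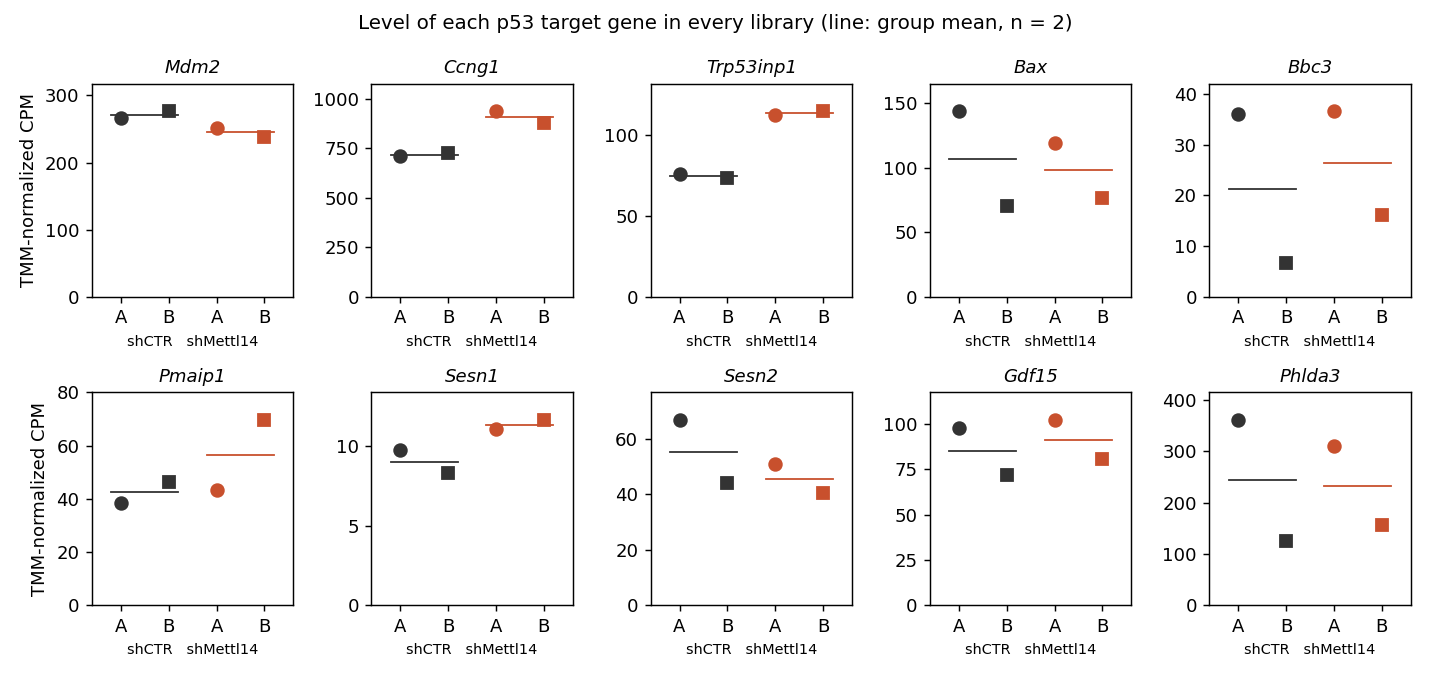
TMM-normalized CPM of the 10 p53 target genes in each library. Circles are letter A, squares letter B, black shCTR, orange shMettl14, and lines the mean of 2 libraries. *Trp53inp1* sits at 73.2 and 76.1 CPM with shCTR and 113 and 115 CPM with shMettl14, whereas *Bbc3*, *Bax* and *Phlda3* separate by letter.

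*Trp53inp1* encodes a stress-induced nuclear protein that promotes p53 phosphorylation and takes part in autophagy. It had 8646 and 7909 counts in shCTR A and B and 13373 and 14915 counts in shMettl14 A and B. These were 76.1 and 73.2 CPM with shCTR and 113 and 115 CPM with shMettl14, so that the libraries of a group lay close together and the groups were well apart. The group means were 74.7 ± 2.05 and 114 ± 1.45 CPM (SD, n = 2 libraries each). The fitted log2 fold change was 0.61 (standard error 0.18, 95% interval 0.14 to 1.07, unadjusted p = 0.021, adjusted p = 1.0 from edgeR), and the log2 ratios within the letters were 0.56 for A and 0.65 for B. Left out one by one, no library moved the fitted value below 0.57 or above 0.64. The gene lies on the plus strand of chromosome 4 of GRCm38 from 11156431 to 11174379.

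*Ccng1* encodes cyclin G1, an early p53 target whose product brings a phosphatase to Mdm2. It was the most abundant of the 10, with 710 and 726 CPM in shCTR A and B and 937 and 879 CPM in shMettl14 A and B. Both knockdown libraries were thus above both controls. The means were 718 ± 11.5 and 908 ± 41.1 CPM (SD, n = 2 libraries each). This was a fitted difference of 0.34 on the log2 scale (standard error 0.18, 95% interval −0.13 to 0.80), or 0.40 in letter A and 0.28 in letter B. The gene is on the minus strand of chromosome 11 from 40748552 to 40755311.

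*Sesn1* and *Sesn2* encode sestrins, stress-induced proteins that lower mTORC1 signalling, and *Sesn2* is also induced through the transcription factor ATF4. *Sesn1* had the lowest mean level of the 10, with 9.73 and 8.30 CPM in shCTR A and B and 11.1 and 11.6 CPM in shMettl14 A and B. Its groups did not overlap. The log2 fold change was 0.33 (standard error 0.25, 95% interval −0.32 to 0.98), with 0.18 in A and 0.48 in B. *Sesn2* had the opposite sign, with 66.7 and 44.2 CPM in shCTR and 50.9 and 40.4 CPM in shMettl14. Here shMettl14 A lay between the control libraries. The log2 fold change of *Sesn2* was −0.28 (standard error 0.28, 95% interval −1.01 to 0.45), with −0.39 in A and −0.13 in B. The intervals of both sestrins included 0, and the difference between them was not tested. *Sesn1* lies on the plus strand of chromosome 10 from 41809935 to 41908424, and *Sesn2* on the minus strand of chromosome 4 from 132492032 to 132510501.

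*Mdm2*, the feedback gene of the pathway, had 267 and 276 CPM in shCTR A and B and 252 and 238 CPM in shMettl14 A and B. The groups did not overlap, yet the gap between the nearest libraries was small. The means were 272 ± 6.57 and 245 ± 9.52 CPM (SD, n = 2 libraries each), and the log2 fold change was −0.15 (standard error 0.18, 95% interval −0.62 to 0.32), with −0.09 in A and −0.21 in B. *Mdm2* and *Ccng1*, both widely used as indicators of p53 activity, thus had opposite signs in these libraries. *Mdm2* is on the minus strand of chromosome 10 from 117688875 to 117710758.

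Counted over the list, 3 of the 10 genes had both shMettl14 libraries above both controls, against 14.7% of all tested genes, and 1 had both below, against 13.3%. Within both letters 6 were higher and 2 lower, where 30.0% and 27.6% of all genes did so. By the fitted value 6 were higher and 4 lower, beside 51.2% and 48.8% of all tested genes. The median log2 fold change of the 10 was 0.21, beside 0.01 over all genes tested. This median moved when single libraries were left out. It was −0.11 without shCTR B and −0.13 without shMettl14 A, and it was 0.40 without shCTR A, each from a fit of unequal numbers of the letters.

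**Figure D2:**
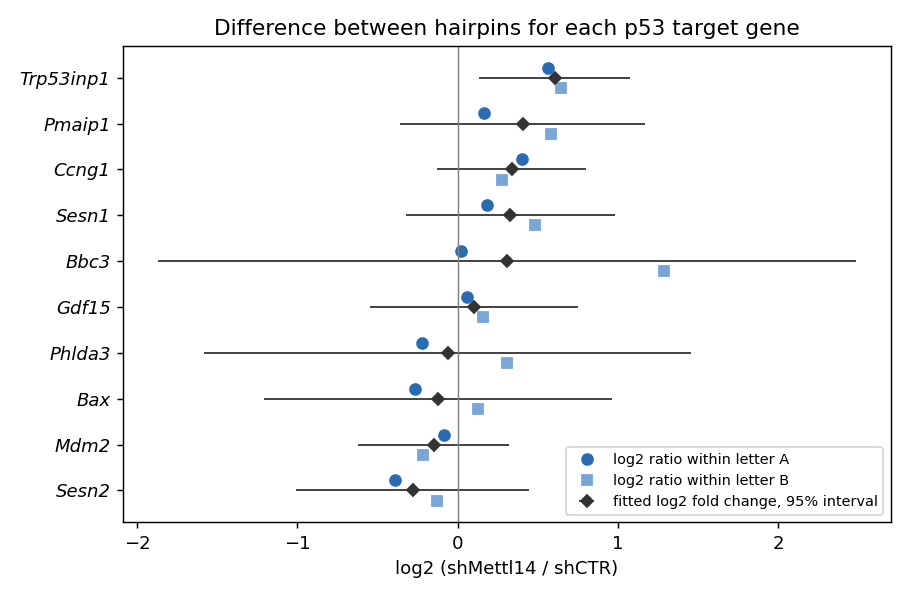
Log2 ratio of shMettl14 over shCTR for each gene. Diamonds with bars are the edgeR log2 fold change and its 95% interval, circles and squares the log2 ratios within letters A and B. The interval of *Trp53inp1* (0.14 to 1.07) lies above 0, those of the other 9 genes include 0, and that of *Bbc3* is the widest (−1.87 to 2.48).

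The apoptotic members differed more between the letters than between the hairpins, which was so for 6 of the 10 genes and for 56.3% of all tested genes. *Bbc3*, whose product PUMA binds every pro-survival BCL2 protein, had 4094 and 716 counts in shCTR A and B and 4348 and 2110 counts in shMettl14 A and B. These were 36.0 and 6.63 CPM with shCTR and 36.6 and 16.2 CPM with shMettl14. The A libraries were alike, and shCTR B stood 5.43-fold below shCTR A. The log2 ratio between hairpins was 0.02 in A and 1.29 in B, and the fitted log2 fold change of 0.31 had a standard error of 0.84. With the letter as a term the fitted value was 0.64 (unadjusted p = 0.037, adjusted p = 0.46, edgeR). In the fit without that term it was −0.45 without shCTR B, −0.40 without shMettl14 A, 0.78 without shMettl14 B and 2.00 without shCTR A. In each such fit the groups hold unequal numbers of the letters, and neither ratio within a letter was negative.

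*Bax*, which forms the pore in the mitochondrial outer membrane, had 144 and 70.3 CPM in shCTR A and B and 120 and 76.9 CPM in shMettl14 A and B. Both A libraries were above both B libraries. The log2 ratios between hairpins had opposite signs, −0.27 in A and 0.13 in B, and the fitted value was −0.12 (standard error 0.42, 95% interval −1.21 to 0.96). It was 0.49 without shCTR A and 0.16 without shMettl14 B. Of the exon bases of *Bax*, 12.2% are shared with *Gm45808* on the same strand, and reads there may have been assigned to either gene or to none. *Bax* and *Bbc3* lie on chromosome 7, from 45461697 to 45466898 on the minus strand and from 16308393 to 16318205 on the plus strand.

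*Pmaip1* encodes NOXA, which neutralizes the pro-survival protein MCL1. Its shMettl14 B library stood above the other 3, with 38.6 and 46.5 CPM in shCTR A and B and 43.3 and 69.6 CPM in shMettl14 A and B. shMettl14 A lay between the controls. The log2 fold change was 0.41 (standard error 0.30, 95% interval −0.36 to 1.17), with 0.16 in A and 0.58 in B, and it was 0.03 without shMettl14 B. *Mcl1* itself had 265 and 270 CPM with shCTR and 249 and 238 CPM with shMettl14, a log2 fold change of −0.13 (standard error 0.18) with groups that did not overlap. *Pmaip1* is on the plus strand of chromosome 18 from 66458533 to 66465565.

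*Phlda3* encodes a small lipid-binding protein that competes with AKT at the membrane. It had 360 and 126 CPM in shCTR A and B and 309 and 157 CPM in shMettl14 A and B, again with both A libraries on top. The log2 ratios of the hairpins were −0.22 in A and 0.31 in B, and the fitted value was −0.06 (standard error 0.59). That value was 0.89 without shCTR A, 0.35 without shMettl14 B and −0.64 without shCTR B. *Gdf15*, a distant member of the TGF-β superfamily, had 97.8 and 72.1 CPM in shCTR A and B and 102 and 80.6 CPM in shMettl14 A and B. It was higher with shMettl14 within each letter, by 0.06 in A and 0.16 in B, but the groups overlapped and the log2 fold change was 0.10 (standard error 0.25). It turned to −0.10 without shCTR B and −0.07 without shMettl14 A. *Phlda3* lies on the plus strand of chromosome 1 from 135766119 to 135769136, and *Gdf15* on the minus strand of chromosome 8 from 70629393 to 70632456.

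The difference between the letters divided the list by base composition. In *Bbc3*, *Bax*, *Phlda3*, *Gdf15* and *Sesn2* the longest annotated transcript has a GC content of 58.7% to 65.2%, and all 5 were lower in B than in A with both hairpins. Their log2 differences, B over A, ranged from −2.44 (*Bbc3*) to −0.44 (*Gdf15*) with shCTR and from −1.17 (*Bbc3*) to −0.33 (*Sesn2*) with shMettl14. In *Trp53inp1*, *Ccng1*, *Pmaip1*, *Mdm2* and *Sesn1* the GC content is 38.8% to 49.8%, and the log2 differences ranged from −0.23 (*Sesn1*) to 0.27 (*Pmaip1*) with shCTR and from −0.09 (*Ccng1*) to 0.68 (*Pmaip1*) with shMettl14. Of the 10 genes, 3 differed between the shCTR libraries by more than 1 on the log2 scale, *Bbc3*, *Phlda3* and *Bax*, as did 24.4% of all tested genes. All 3 were lower in B by that much, as were 13.5% of all tested genes. Across 18276 tested genes with a transcript sequence, the difference of B over A went down with GC content, with a Spearman's rho of −0.36 with shCTR and −0.33 with shMettl14. The points share the same 4 libraries. The log2 ratio of the hairpins had a rho with GC content of −0.24 in the A libraries and −0.003 in the B libraries.

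Each ratio was therefore also taken relative to the median of tested genes of like GC content, an alternative chosen after the data were seen. *Trp53inp1* was then higher by 0.32 in A and 0.55 in B, *Ccng1* by 0.24 and 0.22, and *Sesn1* by 0.19 and 0.48. All 3 kept their sign in both letters. *Mdm2* was at −0.12 and −0.20. *Bax* turned from 0.13 to −0.015 in B and was then lower in both letters, and *Pmaip1* went from 0.16 to 0.0056 in A. *Gdf15* went from 0.16 to 0.016 in B but from 0.062 to 0.155 in A. The difference of *Bax* between the shCTR libraries, −1.03 as measured, was −0.19 on this scale, and that of *Phlda3* was −0.67 in place of −1.51. *Bbc3* was at −1.60, the furthest from 0 of the 10, and *Gdf15* turned from −0.44 to 0.40. The difference between the letters went with the GC content of the genes, and the levels of cell type markers also moved with the letter. The endothelial and epithelial sums were higher in B with both hairpins, the epithelial one mostly through *Krt18*. *Myh11* was lower in B, but the smooth muscle markers had no common direction, with 5 of the 10 higher in B with either hairpin. The median log2 difference of the fibroblast markers, B over A, was −0.86 with shCTR and −0.33 with shMettl14. The part of GC content and of these markers in the differences between hairpins was not tested.

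**Figure D3:**
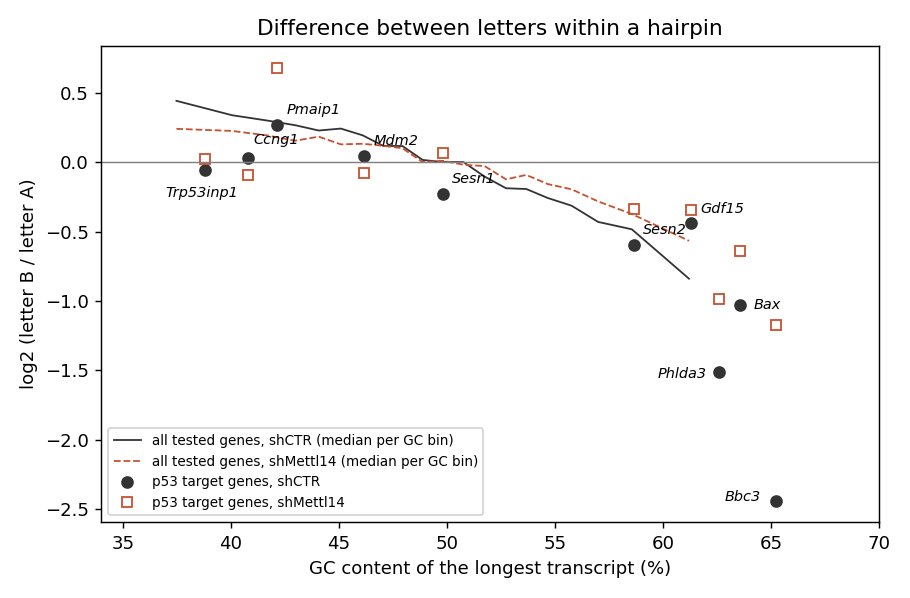
Log2 ratio of letter B over letter A against the GC content (%) of the longest transcript. Filled circles are the 10 genes with shCTR, open squares the same genes with shMettl14, and lines the medians of all tested genes in 20 GC bins. The 5 genes over 58% GC lie below 0 with both hairpins, *Bbc3* lowest at −2.44.

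Per kilobase of merged exon, which allows levels to be compared between genes, *Ccng1* ranked first with 231 CPM per kb (202 to 267 over the libraries), followed by *Phlda3* with 153 (81.0 to 231), and their ranges overlapped. *Bax* (65.1), *Mdm2* (50.8) and *Gdf15* (47.6) followed, with ranges that overlapped each other, and that of *Bax* also overlapped that of *Phlda3*. *Pmaip1* (18.1), *Sesn2* (14.5), *Trp53inp1* (14.5) and *Bbc3* (11.2) came next, also with overlapping ranges. *Sesn1* was last at 2.55 CPM per kb (2.08 to 2.91), below the range of each of the others. It was near the middle, at percentile 51.5 of this scale over the 18237 genes with a single annotated entry and length, whereas *Ccng1* was at percentile 99.2.

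RefSeq promoter windows (GRCm38.p6, 250 bases before to 50 after a start) were at hand for 8 of the 10 genes, all but *Trp53inp1* and *Pmaip1*. They were searched for the p53 decamer half-site, which is 3 purines, a C, 2 bases that are each A or T, a G and 3 pyrimidines, and which reads alike on both strands. The 8 genes have 12 windows. A half-site was found in 4 of the 12, which were 1 window each of *Ccng1*, *Mdm2*, *Sesn1* and *Bax*, beside 8.36% of all 32851 windows. No member window held a pair of half-sites spaced by 13 bases or fewer, as 0.0731% of windows did. The 4 stretches are shown because they include the genes of opposite sign, *Ccng1* and *Mdm2*, beside the stretch of *Cdkn1a*, the classical p53 target, which holds such a pair. Half-sites are in capitals, and each stretch runs 5′ to 3′ on the strand of its gene.
Ccng1: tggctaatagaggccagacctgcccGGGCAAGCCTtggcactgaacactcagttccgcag
Mdm2: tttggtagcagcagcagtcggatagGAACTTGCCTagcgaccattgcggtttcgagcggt
Sesn1: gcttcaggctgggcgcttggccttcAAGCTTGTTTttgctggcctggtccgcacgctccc
Bax: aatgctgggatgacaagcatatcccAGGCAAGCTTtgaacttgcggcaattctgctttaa
Cdkn1a: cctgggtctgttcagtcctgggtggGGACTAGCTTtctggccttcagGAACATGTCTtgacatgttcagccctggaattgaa

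The stretches lie at chr11:40755437-40755496 (*Ccng1*, minus strand), chr10:117710910-117710969 (*Mdm2*, minus strand), chr10:41887241-41887300 (*Sesn1*, plus strand), chr7:45467065-45467124 (*Bax*, minus strand) and chr17:29090881-29090962 (*Cdkn1a*, plus strand). The sites of *Ccng1* and *Mdm2* begin 185 and 186 bases before the start to which their window belongs, that of *Sesn1* 173 and that of *Bax* 201. For *Sesn1* this start is an internal one, since the stretch lies within the span of the gene given above. The *Cdkn1a* sites begin 73 and 51 bases before the start, with 12 bases between them. A match is a description of the letters, and p53 sites outside these windows, such as those in introns, were not searched.

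The groups overlapped for p53 mRNA itself. *Trp53* had 119 and 107 CPM in shCTR A and B and 106 and 108 CPM in shMettl14 A and B, a log2 fold change of −0.08 (standard error 0.19, 95% interval −0.56 to 0.40). *Mdm4*, the partner of Mdm2 that masks the activating domain of p53, had 60.0 and 84.6 CPM with shCTR and 84.1 and 104 CPM with shMettl14. It was higher within each letter (0.49 in A and 0.30 in B), but shMettl14 A was just under shCTR B, and the log2 fold change was 0.38 (standard error 0.26). Of 14 tested genes listed as regulators of p53, 8 were higher and 6 lower, beside 51.2% of all tested genes higher. The list also held *Trp53* itself and a p53 family gene. In the edgeR fit without the letter 0 had an unadjusted p under 0.05, beside 1.67% of all genes. With the letter 3 did, beside 10.3% of all genes. The median of the 14 was 0.02, from −0.06 without shCTR A to 0.27 without shCTR B. The kinases *Atm* and *Atr*, which signal DNA damage to p53, had log2 fold changes of 0.46 (standard error 0.41) and 0.39 (0.32), and the acetyltransferase gene *Kat5* had −0.24 (0.22).

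*Cdkn1a* encodes the cell cycle inhibitor p21. Its levels were 508 and 321 CPM in shCTR A and B and 426 and 352 CPM in shMettl14 A and B, which is −0.25 on the log2 scale in letter A and 0.13 in letter B, with a fitted value of −0.09 (standard error 0.29). The knockdown libraries lay between the controls, and 7.68% of its exon bases overlap a gene on the other strand. *Cdkn1a* was 1 of 36 other p53 targets tested. Of these 25 were higher and 11 lower with shMettl14, beside 51.2% of all tested genes higher, with a median of 0.13. In both letters alike 18 were higher and 8 lower, beside the 30.0% and 27.6% of all genes given for the target genes. In the edgeR fit without the letter 0 of the 36 reached the unadjusted level of 0.05, beside 1.67% of all genes. With the letter 6 did, 4 higher and 2 lower, beside 10.3% of all genes. The median was positive under each setting tried, from 0.04 without shCTR B to 0.15 with upper-quartile factors. The furthest from 0 with the same sign in both letters were *Perp* (−0.66, standard error 0.51), a membrane protein of desmosomes, *Ddit4* (0.49, 0.66), an inhibitor of mTORC1, *Tigar* (−0.41, 0.23), which lowers glycolytic flux, and *Ddb2* (0.39, 0.37), a DNA damage sensor. The log2 ratio of *Ddit4* was only 0.0059 in A and was 1.61 in B, and its shCTR B library stood 4.09-fold below shCTR A.

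**Figure D4:**
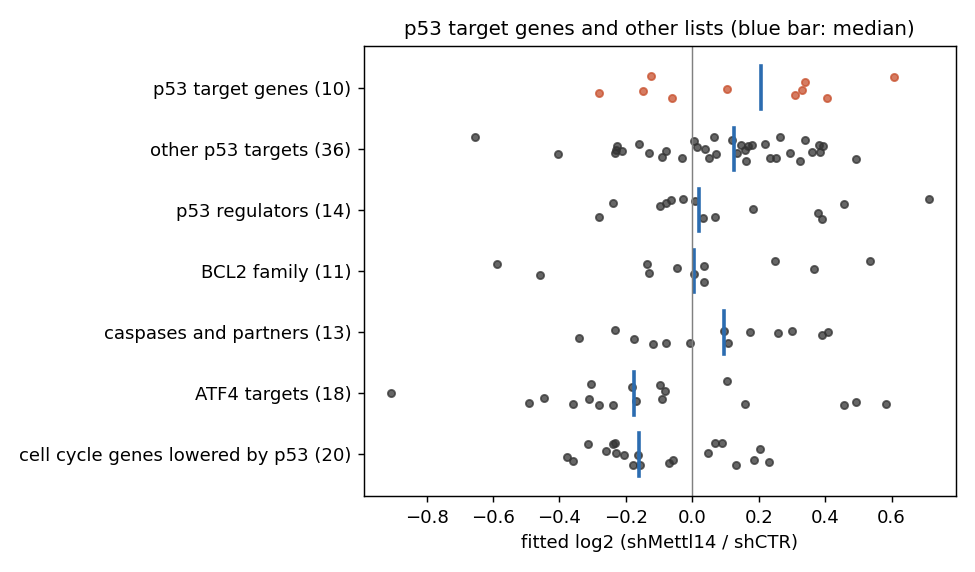
Fitted log2 fold change of shMettl14 over shCTR for every tested gene of 7 lists, with the number tested in parentheses and a blue bar at the median. The p53 target genes have a median of 0.21 and the other p53 targets 0.13, and the ATF4 targets have a median of −0.18.

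The partners of *Bax*, *Bbc3* and *Pmaip1* gave no common direction. Of 11 tested genes of the BCL2 family outside the list, 6 were higher and 5 lower, beside 51.2% of all tested genes higher. The median of 0.01 over the 11 was −0.003 with RLE factors or DESeq2, −0.27 without shCTR B and 0.22 without shCTR A. *Bid* was −0.59 (standard error 0.27), with groups that did not overlap, and the pro-survival genes *Bcl2l2* and *Bcl2* were 0.54 (0.29) and 0.37 (0.27), with the pro-apoptotic *Bmf* at 0.25 (0.39). Of 13 caspases and their partners, 7 were higher and 6 lower, beside the same share of all genes. *Casp9*, the initiator downstream of Bax, was at 0.39 (0.34). *Birc2*, an inhibitor of apoptosis, was at 0.26 (0.24) and *Casp8*, the initiator at death receptors, at −0.23 (0.34). In the edgeR fit without the letter 0 genes of either group reached the unadjusted level of 0.05, beside 1.67% of all genes. With the letter 3 of the 11 BCL2 family genes did, *Bcl2l2*, *Bid* and *Bcl2*, beside 10.3% of all genes.

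*Sesn2* and *Gdf15* are also targets of ATF4, the factor of the integrated stress response. Of 18 genes tested as ATF4 targets, these and the gene of ATF4 itself included, 5 were higher and 13 lower with shMettl14, beside 48.8% of all tested genes lower. The median of the 18 was −0.18. It was 0.05 without shCTR A, −0.42 without shCTR B, −0.27 without shMettl14 A and −0.12 without shMettl14 B. In the edgeR fit without the letter 2 had an unadjusted p under 0.05, both lower, beside 1.01% of all genes lower at that level. With the letter 6 did, of which 4 were lower, beside 10.3% of all genes in either direction and 5.55% lower. In both fits 0 of the 18 passed an adjusted p of 0.05. *Nupr1*, a stress-induced chromatin protein, had 410 and 539 CPM in shCTR A and B and 249 and 257 CPM in shMettl14 A and B, a log2 fold change of −0.91 (standard error 0.22, adjusted p = 1.0 from edgeR). *Shmt2*, a mitochondrial enzyme of serine metabolism, had a log2 fold change of −0.49 (standard error 0.19). Both genes were lower in each knockdown library than in each control, whereas the groups overlapped for *Sesn2* and *Gdf15*. *Slc7a11*, the cystine transporter gene, was at 0.58 (standard error 0.71).

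Active p53 is also known to lower cell cycle genes, through p21 and the DREAM repressor complex. Of 20 such genes 13 were lower and 7 higher with shMettl14, beside 48.8% of all tested genes lower. Within both letters 10 were lower and 2 higher, beside 27.6% and 30.0% of all genes. By edgeR 0 of the 20 had an unadjusted p under 0.05, with the letter (10.3% of all genes) or without it (1.67%). The median of the 20 was −0.16. It was 0.18 without shCTR B, 0.16 without shMettl14 A, −0.23 without shCTR A and −0.37 without shMettl14 B. *Birc5* and *E2f1* were at −0.38 (standard error 0.41) and −0.31 (0.24), and *Ccna2* and *Mcm5* at −0.26 (0.43) and −0.24 (0.22). The median difference of B over A on the log2 scale was 0.45 over this list with shCTR and 0.76 with shMettl14. B was above A in 17 of the 20 with shCTR and in 19 with shMettl14, beside 49.3% and 49.5% of all tested genes. *E2f1* was lower in B with both hairpins. The medians of the p53 target genes had the opposite sign, −0.33 and −0.21.

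Across normalization factors, filters, tools and left-out libraries the fitted log2 fold change of *Trp53inp1* ranged from 0.57 to 0.64, that of *Ccng1* from 0.29 to 0.39 and that of *Sesn1* from 0.22 to 0.45. *Mdm2* ranged from −0.19 to −0.11 and *Pmaip1* from 0.03 to 0.71. The other 5 genes, those of high GC content, changed sign in at least 1 fit with a library left out. In such fits the groups hold unequal numbers of the letters, so that a difference between letters moves the value. *Phlda3* also changed sign with the letter as a term.

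**Figure D5:**
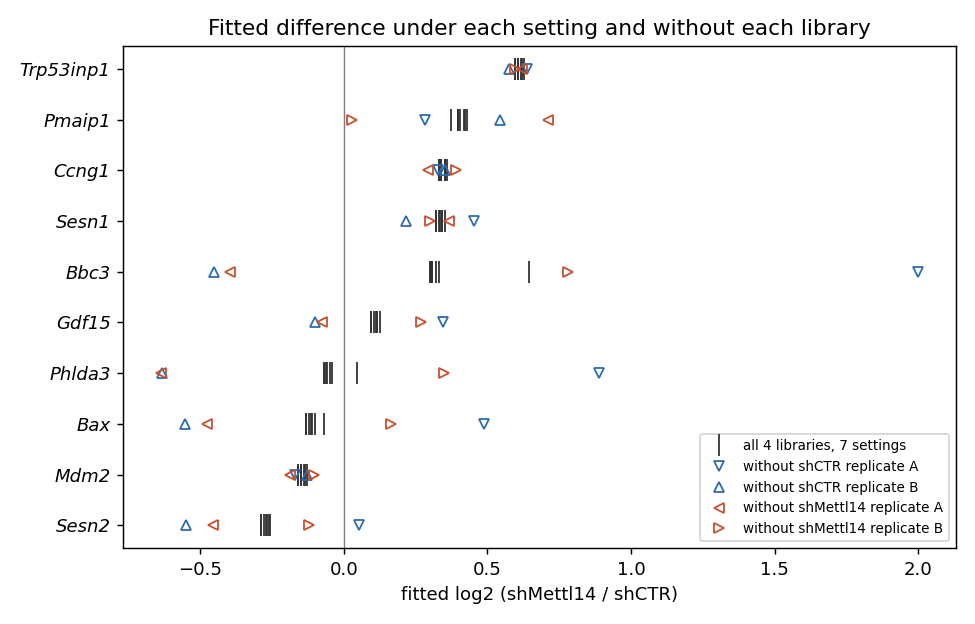
Fitted log2 fold change of the 10 genes under each setting. Ticks are 7 settings on all 4 libraries and triangles are fits without 1 library, in which the groups hold unequal numbers of the letters. *Trp53inp1*, *Ccng1*, *Sesn1*, *Pmaip1* and *Mdm2* stay on 1 side of 0, and *Bbc3* runs from −0.45 to 2.00.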

How the data were processed

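Poly-A–enriched, stranded mRNA-seq libraries were sequenced on both ends. The authors aligned reads to mm10 (GRCm38) by STAR and summed them over genes by featureCounts (versions not given in the sources used here), and the deposited values are raw counts without normalization. Strand settings and the treatment of multi-mapping reads were not stated. The 10 genes and the lists around them were chosen with earlier results of these data known. The named genes are these 10, *Mettl14*, *Trp53*, *Mdm4*, *Cdkn1a*, *Mcl1* and, per list, at most 4 genes with the largest fitted difference among those with the same sign in both letters and a mean of at least 1 CPM. Of the marker lists, only genes at 0 and *Acta2* and *Myh11* are named, and 1 gene under the rule is not reported here.

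Groups were compared with edgeR 4.0.16 in R 4.3.3 (TMM, filterByExpr, robust quasi-likelihood fit across all genes, no block). In simulated data some genes were changed by 2 on the log2 scale, more than the fitted difference of any of the 10 genes. Smaller differences were not simulated. Where the letters differed as here on average, and to the same extent with both hairpins, this fit recovered 0% of the changed genes. A fit with the letter as a term recovered 97.4% of them, with 10 false calls. With letters alike both fits recovered 10.9%, with 0 false calls. The spread was that of the fit without the letter where letters were alike, and the smaller one of the fit with the letter where they differed. A lack of calls thus does not show a lack of differences. Each standard error was derived from the fitted difference and its F statistic, as their quotient after the square root of F was taken, and 95% intervals use the same fit. Ratios within letters and between letters used log2 CPM with a prior count of 2. GC content, exon lengths and positions came from GENCODE M21, and promoters from RefSeq. DESeq2 1.42.0, other factors and filters, a replicate block and each library left out were alternatives. Python 3.11.15 and pandas 2.3.3 did the other steps. With 2 libraries per group the smallest two-sided p of an exact permutation test is 0.333.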

Additional observations from a re-analysis of the deposited data

How the results depend on the processing

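Genes called at an adjusted p of 0.05 numbered 0 in edgeR under TMM, RLE and upper-quartile factors and both other filters, 4 with DESeq2, and 0 to 1 with a library left out, where a lone library is assumed to vary like the other group. None of the 10 p53 target genes passed under any of the 10 alternatives (lowest adjusted p 0.249, *Trp53inp1* under the block). Of the 10, 5 kept their sign throughout. With a library left out *Bax* ranged from −0.55 to 0.49, *Bbc3* from −0.45 to 2.00, *Sesn2* from −0.55 to 0.053, *Gdf15* from −0.10 to 0.35, *Phlda3* from −0.64 to 0.89 and the median of the 10 from −0.13 to 0.40, and 4 to 9 of the genes were higher. The causes were not tested.

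Under a replicate block, with the letter as a term of the model, edgeR called 9 genes (0.0476%), *Phlda3* turned to 0.046 and *Mettl14* passed (−2.08, adjusted p = 0.0039), as it did with DESeq2 (−2.09, adjusted p = 1.7e-09), against 1.0 without the block. *Trp53inp1*, *Bbc3* and *Pmaip1* then had an unadjusted p under 0.05, all 3 higher with shMettl14, beside 4.72% of all genes that were higher at that level and 10.3% in either direction. *Bbc3* was at 0.64 in that fit, against 0.31 without the block. At that level the block also had 3 of 14 regulators (all higher) and 6 of 36 other targets (4 higher, 2 lower). It had 3 of 11 BCL2 family genes (2 higher, 1 lower) and 6 of 18 ATF4 targets (2 higher, 4 lower). It had 0 of the caspase and cell cycle lists, beside 5.55% of all genes that were lower. Among cell type markers it had 4 of 10 smooth muscle, 1 of 10 endothelial and 2 of 4 tested epithelial genes, all lower. It had 0 of the leukocyte and fibroblast markers. None of these genes had an adjusted p under 0.05. Deviations of same-letter libraries from their group means had a correlation of 0.578 across genes, but no source says that a letter stands for one culture. A prior count of 0.5 moved none of the 20 ratios within letters beyond their spread. Each of the 10 genes had at least 716 counts in every library.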
